A study of Mus musculus with 6 samples.

Results

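The genes described here are tumor necrosis factor (Tnf), the receptors Tnfrsf1a, Tnfrsf1b and Tnfrsf12a, and 6 genes that carry, brake or follow the NF-kB signal, namely Nfkb2, Relb, Nfkbia, Tnfaip3, Birc3 and Plaur. They were taken by gene symbol from a table of RNA-Seq read counts on 52459 genes in mouse liver, which held all 10 of them, and all 10 were among the 17032 genes that passed the filter on low counts. The study asked how targeting peroxiredoxin 2 (Prdx2), a peroxide-reducing enzyme, changes a liver on its way to cancer. All 6 livers came from male C57BL6J mice of the Alb-Cre/Cas9 F1 generation, aged 8 months, in which the albumin promoter drives Cre and so restricts Cas9 to hepatocytes. At 4 to 5 weeks of age the mice were injected intravenously with AAV8-U6-sgCtrl, which carries a control guide RNA (sgCtrl, mice 5.1, 7.1 and 7.2), or with AAV8-U6-sgPrdx2, which carries a guide RNA against Prdx2 (sgPrdx2, mice 1.1, 1.3 and 3.2). Both groups were treated alike with 100 mg/kg of the carcinogen diethylnitrosamine (DEN) and a choline-deficient high-fat diet (CDA-HFD) for 6 months, so no untreated liver was compared. RNA was made from flash-frozen liver, which also holds macrophages, lymphocytes, endothelial and stellate cells, in which this promoter does not drive Cre.

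TNF is secreted mainly by activated macrophages and binds the receptors TNFR1 and TNFR2. The bound receptors gather adaptors and ubiquitin ligases that free the NF-kB transcription factors from their IkB inhibitors. NF-kB then switches on inflammatory genes together with its own brakes, among them the IkB protein IkBa and the ubiquitin-editing enzyme A20, which end the signal. In the fatty, injured liver this pathway is known both for driving inflammation and for protecting hepatocytes from TNF-induced death.

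Total counts were 37462102 to 56865293 per liver. Counts were normalized by the trimmed mean of M values (TMM) and are given as CPM, which are counts scaled to the size of each library, always in the order 5.1, 7.1 and 7.2 for sgCtrl livers and 1.1, 1.3 and 3.2 for sgPrdx2 livers. Figures after ± are SDs over the livers of a group (SD, n = 3). A gene was called changed at a Benjamini-Hochberg adjusted p under 0.05 over all 17032 genes in edgeR's quasi-likelihood test. Prdx2 RNA, at 119 ± 11.6 CPM with the control guide, was 120 ± 26.1 CPM with the Prdx2 guide, and since small insertions and deletions need not lower an RNA, it does not check the labels. The summed level of 8 hepatocyte markers was 81541 ± 3321 CPM in the former and 163890 ± 23830 CPM in the latter livers. In such bulk RNA, fewer cells of a type and less RNA per cell cannot be told apart.

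Of the 10 genes, Plaur alone passed the test, and it was lower in sgPrdx2 livers. Over all genes 1.54% were called lower and 3.33% were called in either direction. At an adjusted p under 0.10, 4 of the 10 were called, all lower, against 4.71% of all genes. In 5 of the 10 genes, Plaur, Tnf, Tnfrsf12a, Tnfaip3 and Tnfrsf1b, the 3 sgPrdx2 livers lay below the 3 sgCtrl livers without overlap, against 17.5% of all genes tested (34.2% separated in either direction). These 5 also had an unadjusted p under 0.05 with a lower level, against 11.9% of all genes. The log2 fold change was negative in 9 of the 10, against 8802 of the 17032 genes tested. Its median was -0.42, against -0.02 over all genes tested. DESeq2, run on the same counts, called these 5 genes lower, with 5.78% of all genes called lower by that tool.

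**Figure D1:**
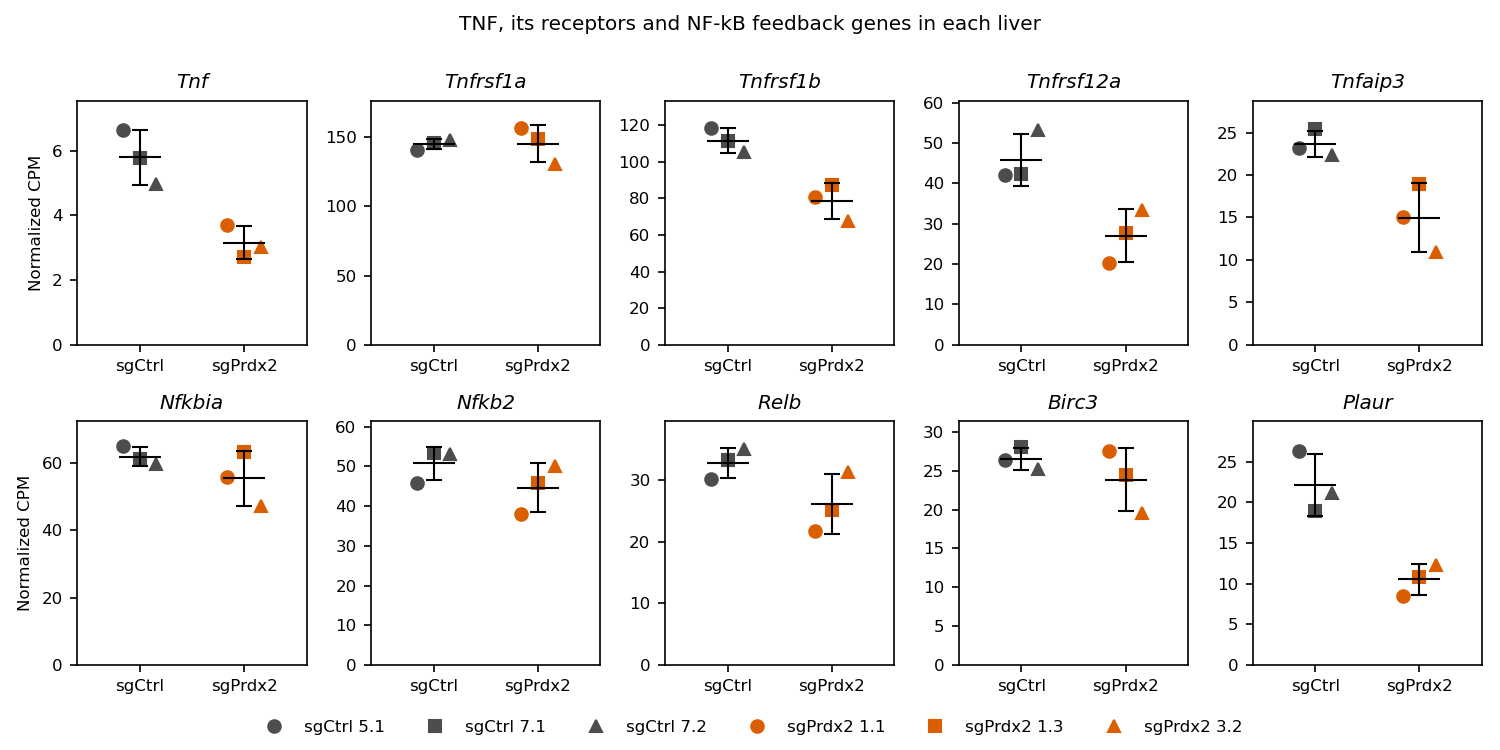
Normalized CPM (y axes, from 0) of each of the 10 genes in the 3 sgCtrl livers (gray) and the 3 sgPrdx2 livers (orange), 1 symbol per liver, with the group mean as a long bar and the SD as whiskers. Plaur, Tnf, Tnfrsf12a, Tnfaip3 and Tnfrsf1b show no overlap between groups, and the other 5 genes do.

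The ligand came first in the order of the pathway. Tnf (ENSMUSG00000024401, chr17:35199381-35202007, GRCm38) had 291, 259 and 261 counts in sgCtrl and 163, 147 and 98 counts in sgPrdx2 livers, which is 6.65, 5.76 and 4.97 CPM and 3.71, 2.72 and 3.01 CPM after normalization. Every sgPrdx2 liver lay below the lowest sgCtrl liver, sgCtrl 7.2. The mean went from 5.79 ± 0.841 CPM to 3.15 ± 0.512 CPM, which is -0.88 as a log2 fold change (SE 0.20, 95% interval -1.33 to -0.42). This narrowly missed the threshold in edgeR's quasi-likelihood test (adjusted p = 0.0553) and passed it in DESeq2 (adjusted p = 0.0034).

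The receptors differed among themselves. Tnfrsf1a (ENSMUSG00000030341, chr6:125349362-125362484), which encodes the death domain receptor TNFR1 found on nearly all cells, stood at 141, 146 and 148 CPM in sgCtrl and 157, 149 and 130 CPM in sgPrdx2 livers. The groups overlapped, and the sgPrdx2 livers lay on both sides of the sgCtrl livers. Its fold change was 0.0022 on the log2 scale, with a 95% interval of -0.30 to 0.30 (adjusted p = 0.993, edgeR's quasi-likelihood test), so that a larger difference in either direction lay outside the interval under TMM. Relative to the median of all genes it was 0.02 under TMM, RLE, upper-quartile and total-count scaling and 0.03 under housekeeping scaling.

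Tnfrsf1b (ENSMUSG00000028599, chr4:145213463-145246870), which encodes TNFR2, the receptor most abundant on immune and endothelial cells, had 119, 111 and 105 CPM in sgCtrl and 80.8, 87.1 and 67.5 CPM in sgPrdx2 livers. The groups did not overlap, and the gap lay between sgCtrl 7.2 and sgPrdx2 1.3. Their log2 ratio was -0.51 (SE 0.14), and edgeR's quasi-likelihood test gave an adjusted p of 0.0863. Taken within each liver, where normalization cancels, Tnfrsf1b counts were 0.771 ± 0.0666 of Tnfrsf1a counts in the control group and 0.540 ± 0.0399 in the sgPrdx2 group. That ratio separated the groups without overlap, and a two-sided exact permutation test gave p = 0.1, below which 3 livers against 3 cannot go (0.175 after adjustment over the 7 ratios tested).

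Tnfrsf12a (ENSMUSG00000023905, chr17:23675445-23677468) encodes Fn14, the receptor of the TNF-like cytokine TWEAK, which is induced in injured liver and on progenitor cells. It had 42.0, 42.2 and 53.3 CPM in sgCtrl and 20.2, 27.6 and 33.3 CPM in sgPrdx2 livers. Here too the groups did not overlap, with sgPrdx2 1.1 the lowest liver. This came to -0.76 on the log2 scale (SE 0.20, adjusted p = 0.0721, edgeR's quasi-likelihood test), and without sgPrdx2 3.2 it was -0.93 and past the threshold (adjusted p = 0.0462). With any other liver left out it did not pass, at -0.82 to -0.59 (adjusted p of 0.109 to 0.214). Its ratio to Tnfrsf1a went from 0.316 ± 0.0381 to 0.190 ± 0.0632 (two-sided exact permutation test, p = 0.1, and 0.175 after adjustment over the 7 ratios).

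**Figure D2:**
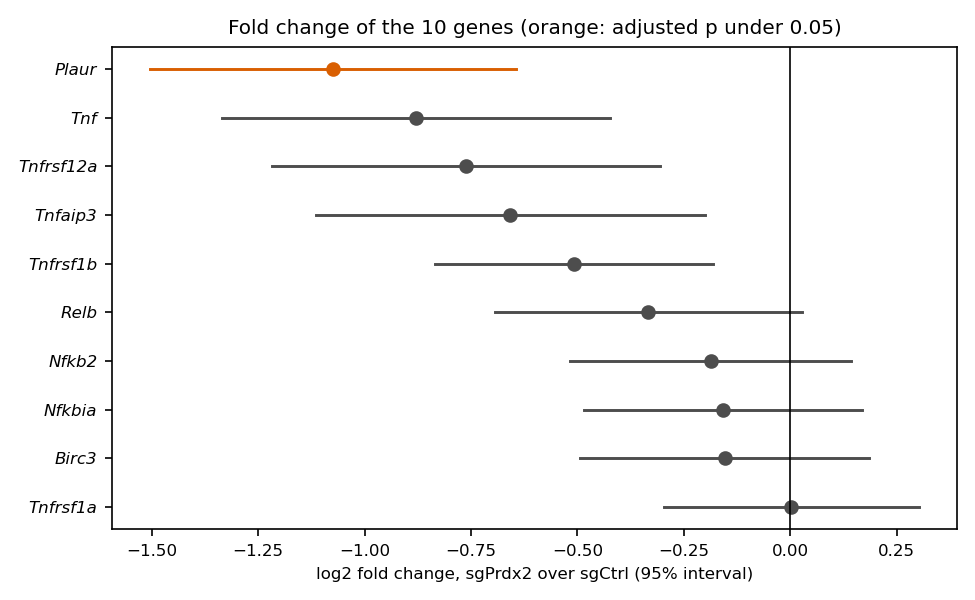
Log2 fold change of the 10 genes, sgPrdx2 over sgCtrl livers (x axis), with 95% intervals from edgeR's quasi-likelihood fit and 3 livers per group. Plaur, in orange, was the gene with an adjusted p under 0.05, at -1.07. The intervals of Tnf, Tnfrsf12a, Tnfaip3 and Tnfrsf1b also lie below 0, and those of the other 5 genes include 0.

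Both NF-kB subunits in the set belong to the slower, noncanonical arm of the pathway, in which the p100 precursor made from Nfkb2 is cut to p52, the partner of RelB. Nfkb2 (ENSMUSG00000025225, chr19:46304320-46312385) had 45.9, 53.3 and 53.0 CPM in sgCtrl and 37.9, 45.9 and 50.0 CPM in sgPrdx2 livers. Relb (ENSMUSG00000002983, chr7:19606217-19629438) had 30.1, 33.3 and 35.0 CPM in sgCtrl and 21.7, 25.2 and 31.3 CPM in sgPrdx2 livers. In both genes sgPrdx2 1.1 was the lowest liver, and sgPrdx2 3.2 lay above sgCtrl 5.1, so the groups overlapped. On the log2 scale the fold change was -0.19 (95% interval -0.52 to 0.14, adjusted p = 0.447) for Nfkb2 and -0.33 (95% interval -0.69 to 0.03, adjusted p = 0.231) for Relb by edgeR's quasi-likelihood test. Relb stood at 0.413 ± 0.00748 of Rela under sgCtrl and at 0.324 ± 0.0316 under sgPrdx2. This ratio was lower in all 3 of the latter (two-sided exact permutation test, p = 0.1, and 0.175 after adjustment over the 7 ratios). Exons of Nfkb2 share 11.6% of their bases with AC114539.1 and 6.52% with Psd on the opposite strand, and since the strand setting of the counting is not given in the sources used here, reads from these stretches cannot be told apart.

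Among the brakes, Nfkbia and Tnfaip3 differed in size. Nfkbia (ENSMUSG00000021025, chr12:55489410-55492647), which encodes the inhibitor IkBa, had 65.0, 61.1 and 59.6 CPM in sgCtrl and 55.8, 63.4 and 47.2 CPM in sgPrdx2 livers. The groups overlapped through sgPrdx2 1.3. This gave a log2 fold change of -0.16 (95% interval -0.48 to 0.17, adjusted p = 0.516, edgeR's quasi-likelihood test). Tnfaip3 (ENSMUSG00000019850, chr10:19000910-19015657), which encodes A20, had 23.2, 25.4 and 22.4 CPM in sgCtrl and 15.1, 19.0 and 10.9 CPM in sgPrdx2 livers. The groups were apart, with sgPrdx2 3.2 the lowest. For Tnfaip3 the difference was -0.66 on the log2 scale (SE 0.20), with an adjusted p of 0.101 in edgeR's quasi-likelihood test and 0.0359 in DESeq2. Relative to Nfkbia, Tnfaip3 went from 0.383 ± 0.0299 to 0.266 ± 0.0345, again with all 3 lower (two-sided exact permutation test, p = 0.1, and 0.175 after adjustment over the 7 ratios).

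Nfkbia, Tnfaip3 and Nfkb2 are known NF-kB targets, and their promoters are shown because each holds the NF-kB consensus. The search covered 250 bases before and 50 bases after each start site of the RefSeq annotation on GRCm38.p6, on both strands. Of the 10 genes, 9 had a promoter entry, all but Relb, and their 12 start-site windows were searched. A match lay in some window of 3 of these 9 genes, against 9.55% of 27025 genes with an entry (8.46% of 32851 windows). The stretches are read 5′ to 3′ on the gene's strand, with NF-kB consensus matches in capitals. At the first start site of Tnfaip3 the matches begin at -125 and -12. In Nfkbia the match begins at -29. At the first start site of Nfkb2 a pair of overlapping matches begins at -39 and -38, and a further match at -11 lies outside the 30 bases shown. Its second start site had matches at -236 and 10 and its start site 3 at -225, which are not shown. The matches at 10 and -225 are the same bases, counted from different start sites.
Tnfaip3 promoter, chr10:19015411-19015540, - strand: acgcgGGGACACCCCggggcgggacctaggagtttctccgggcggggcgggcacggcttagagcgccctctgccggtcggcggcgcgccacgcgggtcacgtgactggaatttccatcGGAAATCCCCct
Nfkbia promoter, chr12:55492648-55492797, - strand: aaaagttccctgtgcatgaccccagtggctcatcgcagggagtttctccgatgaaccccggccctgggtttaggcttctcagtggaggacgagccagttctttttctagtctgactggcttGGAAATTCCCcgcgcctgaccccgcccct
Nfkb2 promoter, chr19:46304689-46304718, + strand: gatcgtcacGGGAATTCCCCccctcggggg
The log2 fold changes of these 3 genes were -0.66, -0.16 and -0.19, with a median of -0.19. The median of the 6 genes without a match in this window was -0.64. A match is a run of letters and says nothing on its own about binding of the factor. Nor does its absence from this window show that a gene is not an NF-kB target.

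Birc3 (ENSMUSG00000032000, chr9:7848699-7873186) encodes cIAP2, a ubiquitin ligase of the TNF receptor complex that holds back cell death. It had 26.3, 28.1 and 25.3 CPM in sgCtrl and 27.6, 24.4 and 19.6 CPM in sgPrdx2 livers. The groups overlapped, sgPrdx2 3.2 being the lowest liver and sgPrdx2 1.1 lying within the sgCtrl range. The difference was -0.15 on the log2 scale (95% interval -0.49 to 0.19, adjusted p = 0.541, edgeR's quasi-likelihood test). Its ratio to the related Birc2 was 0.651 ± 0.0594 with the control guide against 0.744 ± 0.0780 with the Prdx2 guide (two-sided exact permutation test, p = 0.3).

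Plaur (ENSMUSG00000046223, chr7:24462484-24475968) encodes the urokinase receptor uPAR, which gathers plasminogen activation at the surface of myeloid and migrating cells. It had 1154, 851 and 1113 counts in sgCtrl and 372, 588 and 399 counts in sgPrdx2 livers. After normalization these were 26.4, 18.9 and 21.2 CPM and 8.48, 10.9 and 12.3 CPM. The groups were well apart, since the lowest sgCtrl liver lay above every sgPrdx2 liver by more than the range of the sgPrdx2 livers. Plaur fell from 22.2 ± 3.81 CPM to 10.5 ± 1.91 CPM, or by a log2 fold change of -1.07 (SE 0.19, 95% interval -1.50 to -0.64, adjusted p = 0.0394, edgeR's quasi-likelihood test). The call was lost when sgCtrl 5.1, sgCtrl 7.2, sgPrdx2 1.1 or sgPrdx2 1.3 was left out (adjusted p of 0.119, 0.143, 0.144 and 0.0843), with log2 fold changes from -1.10 to -0.93. Over all alternatives its adjusted p ranged from 4.51e-05 to 0.144.

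The Plaur promoter held no NF-kB consensus in the window searched, but it held TGANTCA, the core of the AP-1 binding site. This word was searched on both strands. It was found in 3 of the 9 genes, against 8.97% of the 27025 genes with an entry (7.81% of the 32851 windows), namely at -69 in Plaur, at -136 in Tnfaip3 (outside the bases shown above) and at -210 from another start site of Nfkb2. None of these overlapped an NF-kB match. The match is in capitals.
Plaur promoter, chr7:24462333-24462482, + strand: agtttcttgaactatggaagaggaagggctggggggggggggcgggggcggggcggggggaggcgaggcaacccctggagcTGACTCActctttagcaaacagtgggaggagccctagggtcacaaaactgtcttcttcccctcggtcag

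Plaur was not alone among the genes of plasminogen activation. Of 7 genes on that list, 6 were tested and edgeR called 3 lower, Plaur among them, against 1.54% of all genes. Plau, which encodes urokinase, the ligand of uPAR, fell from 28.4 ± 1.15 CPM to 12.0 ± 2.97 CPM, a log2 fold change of -1.24 (adjusted p = 0.0358, edgeR's quasi-likelihood test). Plat, which encodes tissue plasminogen activator, fell by 0.93 on the log2 scale (adjusted p = 0.0399). Plg, the liver-made substrate plasminogen, stood at 0.84 and did not pass in edgeR's test (adjusted p = 0.0504), nor did its inhibitor gene Serpinf2 at 0.70 (adjusted p = 0.0752). Both were called higher by DESeq2 (adjusted p of 0.000218 and 0.00462). The ratio of Plaur to Plau counts was 0.888, 0.674 and 0.771 in sgCtrl and 0.628, 0.782 and 1.43 in sgPrdx2 livers, without separation of the groups (two-sided exact permutation test, p = 0.8).

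The 10 genes did not order the 3 sgPrdx2 livers alike. Tnfrsf12a, Plaur, Relb and Nfkb2 were lowest in sgPrdx2 1.1 and highest in sgPrdx2 3.2. Tnfrsf1a, Tnfrsf1b, Tnfaip3, Nfkbia and Birc3 were lowest in sgPrdx2 3.2, and Tnf was lowest in sgPrdx2 1.3. Averaged over the 10 genes, the log2 level relative to the mean of the 6 livers was 0.26, 0.24 and 0.23 in sgCtrl and -0.29, -0.16 and -0.27 in sgPrdx2 livers. The sgCtrl livers were thus closer to each other than the sgPrdx2 livers were. Among 14113 other genes whose mean reached 1 CPM, Sirpa came nearest to this mean profile, with a root mean square difference of 0.0386 over the 6 livers. Agps (0.0411), Rbbp8 (0.0418), Oxct1 (0.0421) and Tax1bp3 (0.0432) followed, and 185 genes were nearer than 0.1.

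Per kilobase of annotated exon, Tnfrsf1a had the highest level in both groups, at 56.0 CPM per kb in sgCtrl and 56.1 CPM per kb in sgPrdx2 livers. Nfkbia followed at 38.5 and 34.5, Tnfrsf1b at 29.2 and 20.6, Tnfrsf12a at 23.7 and 14.0, and Nfkb2 at 11.1 and 9.74 CPM per kb. In sgCtrl livers Plaur came next at 8.47 CPM per kb, ahead of Relb at 8.44, Birc3 at 5.31, Tnf at 3.53 and Tnfaip3 at 3.28. In sgPrdx2 livers Plaur stood at 4.03 CPM per kb, below Relb at 6.71 and Birc3 at 4.76, and Tnfaip3 (2.07) and Tnf (1.92) were again lowest. Neighbors whose livers overlapped in sgCtrl were Tnfrsf1b and Tnfrsf12a, Nfkb2 and Plaur, Plaur and Relb, and Tnf and Tnfaip3. In sgPrdx2 livers they were Tnfrsf12a and Nfkb2, Birc3 and Plaur, and Tnfaip3 and Tnf.

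The wider pathway was described with lists that also hold the genes above. Over all lists together, 110 of 119 genes were tested, and 85 had a lower and 25 a higher level in sgPrdx2 livers. Over all genes, 8802 of the 17032 tested had a lower level. Of the 110, edgeR called 8, all of them lower, and the median log2 fold change was -0.26. DESeq2 called 20, of which 17 were lower and Plg, Serpinf2 and Sod2 were higher. Leaving aside the 10 genes, edgeR called 7 of 100 tested genes lower, against 1.54% of all genes, and 28 were lower without overlap between groups, against 17.5%. Without sgCtrl 5.1, sgCtrl 7.2, sgPrdx2 1.1 or sgPrdx2 1.3, edgeR called 0 genes of these lists, and it called 3 without sgCtrl 7.1.

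Over all 17032 genes tested, 2208 were higher and 2033 (11.9%) were lower at an unadjusted p under 0.05 in edgeR's quasi-likelihood test. Among TNF family ligands, 12 of 18 genes were tested and 0 were called by edgeR. Of these 12, 2 were lower at that unadjusted cutoff (median log2 fold change -0.37). Ltb, which encodes lymphotoxin beta, stood at -0.42 (adjusted p = 0.150). Of 27 TNF receptor family genes 26 were tested and edgeR called 2 lower, against 1.54% of all genes (median of the list -0.30). Tnfrsf11a, the gene of RANK, fell from 12.0 ± 2.31 CPM to 5.86 ± 0.359 CPM, a log2 fold change of -1.03 (adjusted p = 0.0394, edgeR's quasi-likelihood test). Tnfrsf21, the gene of the death receptor DR6, fell by 0.83 on the log2 scale (adjusted p = 0.0456). Tnfrsf23, a decoy receptor gene, stood at -0.78 without passing (adjusted p = 0.0660).

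Of the 25 adaptors, kinases and ubiquitin ligases 0 were called by edgeR, with 1 higher and 2 lower at an unadjusted p under 0.05. Their median of -0.10 was nearest to that of all genes. Traf3, which restrains the noncanonical arm, was at -0.49 (adjusted p = 0.147), Tradd, the TNFR1 adaptor, at 0.43 (adjusted p = 0.157) and Ikbkg, the NEMO subunit of the IkB kinase, at -0.37 (adjusted p = 0.159). Of the 5 NF-kB subunits 0 were called (median -0.33, 2 lower at an unadjusted p under 0.05). Nfkb1 was at -0.48 (adjusted p = 0.156), Rel at -0.52 (adjusted p = 0.186) and Rela, the main canonical subunit, at 0.01 (adjusted p = 0.969). The ratio of Nfkb2 to Nfkb1 was 0.902 ± 0.0412 with the control guide and 1.17 ± 0.444 with the Prdx2 guide, and the spread came from sgPrdx2 3.2 at 1.68 (two-sided exact permutation test, p = 0.5). Of the 6 IkB genes 0 were called (median -0.17, 2 lower at an unadjusted p under 0.05). Nfkbiz was at -0.50 (adjusted p = 0.109) and Nfkbid at -0.53 (adjusted p = 0.164).

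Of the 11 genes of feedback by deubiquitinases, A20 partners and RNA decay, edgeR called Tnip3 alone (median of the list -0.15). Over all genes 1.54% were called lower. Tnip3, which encodes an A20-binding inhibitor, fell from 4.29 ± 0.0358 CPM to 2.20 ± 0.365 CPM, a log2 fold change of -0.97 (adjusted p = 0.0448, edgeR's quasi-likelihood test). Zc3h12a, which encodes the RNA-degrading enzyme Regnase-1, was at -0.51 (adjusted p = 0.0704). Of 20 target cytokine and adhesion genes 19 were tested and edgeR called 2 lower, against the same 1.54%, with a median of -0.48. Vcam1, the vascular cell adhesion gene, fell by 0.97 on the log2 scale (adjusted p = 0.0409) and Cxcl2, a neutrophil chemokine, fell by 1.08 (adjusted p = 0.0463). Ccl2, the monocyte chemokine, was at -0.75 and just short of the threshold (adjusted p = 0.0596).

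**Figure D3:**
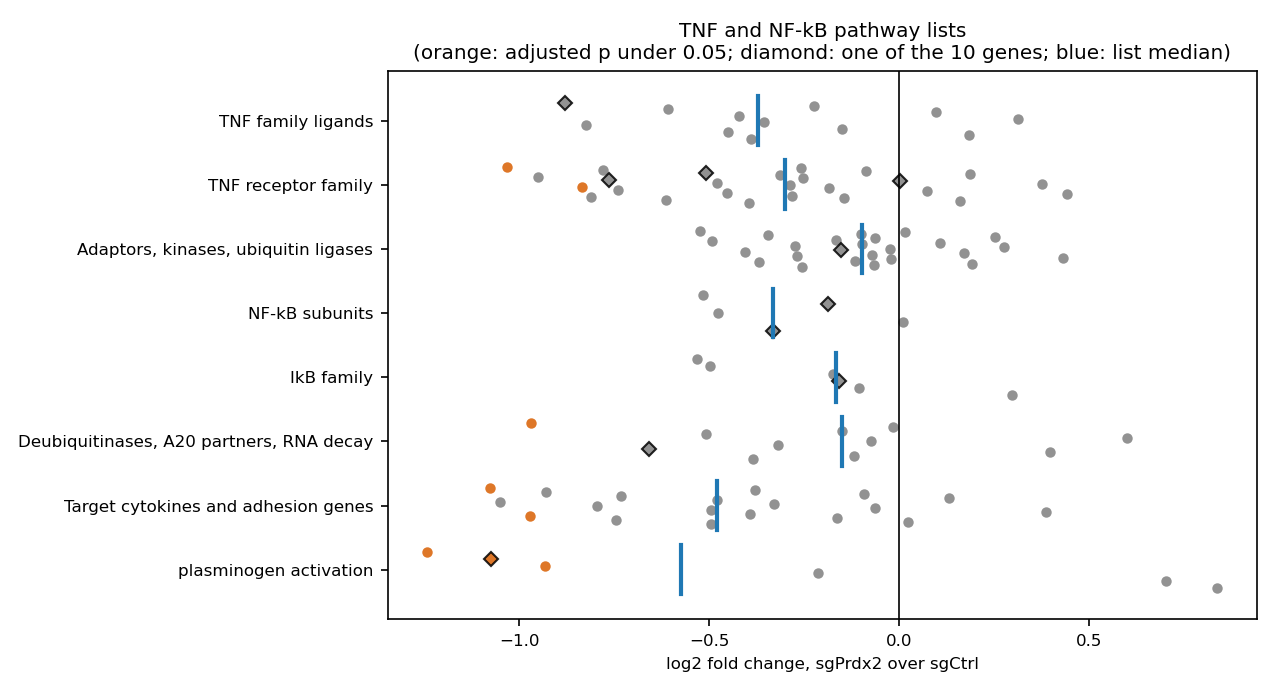
Log2 fold change, sgPrdx2 over sgCtrl livers (x axis), of every tested gene on the 8 pathway lists (rows). Each point is a gene, orange where the adjusted p was under 0.05, diamonds mark the 10 genes described, and blue bars mark list medians. Every orange point lies left of 0, and the medians run from -0.57 (plasminogen activation) to -0.10 (adaptors).

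Many of these genes are expressed by cells other than hepatocytes, so marker sums are given beside them. For the counts of markers below, 17.5% of all genes tested were lower without overlap. In edgeR's test 1.54% of all genes were called lower, and 305 of 17032 were called higher. The sum of 10 macrophage markers was 3351, 3259 and 3684 CPM in sgCtrl and 2268, 2293 and 2977 CPM in sgPrdx2 livers. The groups did not overlap (two-sided exact permutation test, p = 0.1), all 10 markers had a lower mean in sgPrdx2 livers, 3 of them without overlap, and Mpeg1 was called, at -0.82 (adjusted p = 0.0394, edgeR's quasi-likelihood test). The sgPrdx2 livers stood at 0.732 of the sgCtrl mean for this sum, against 0.475 for Plaur, 0.544 for Tnf and 0.703 for Tnfrsf1b. Lyz2 made up 2012 of the 3431 CPM of the macrophage sum in sgCtrl livers. It was at 0.796 and overlapped between groups, with 2084.5 CPM in sgPrdx2 3.2. The 10 macrophage markers ran from 0.566 (Mpeg1), 0.571 (Adgre1) and 0.618 (Cd68) to 0.984 (Timd4). The stellate cell and fibroblast sum was at 0.744, without overlap, but Dcn (651) and Col1a1 (314) made up most of its 1282 CPM in sgCtrl livers. Of its 8 markers 0 were called and 4 were lower without overlap. Pdgfrb (-0.11) and Col1a1 (-0.50) overlapped between groups, and Des (0.03) and Reln (0.15) had higher means. The cholangiocyte sum was at 0.733 without overlap, but Spp1 made up 1578 of its 1742 CPM in sgCtrl livers, and the other 4 markers together stood at 0.774 and overlapped (two-sided exact permutation test, p = 0.2). The endothelial sum was at 0.853 and was lowest in sgPrdx2 3.2. Of its 6 markers, 3 were lower without overlap, and Pecam1 was called at -0.77 (adjusted p = 0.0423, edgeR's quasi-likelihood test). Kdr (-0.29) and Clec4g (-0.13) overlapped between groups, and Stab2 went the other way, at 0.27. Neutrophil (0.802) and T and NK cell (0.808) sums overlapped between groups, and the B cell sum was at 1.19. The neutrophil marker Ly6g had 2 counts in sgCtrl 7.1 and 0 in every other liver, and was not tested. Of the 8 T and NK cell markers, Cd8a was called lower at -0.84 (adjusted p = 0.0486, edgeR's quasi-likelihood test). Only 2 of these 8 were lower without overlap, and Cd4 stood at 0.05. The hepatocyte sum was at 2.01, with 6 of its 8 markers called higher. The part of any of these cell types in the levels of the 10 genes was not tested.

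**Figure D4:**
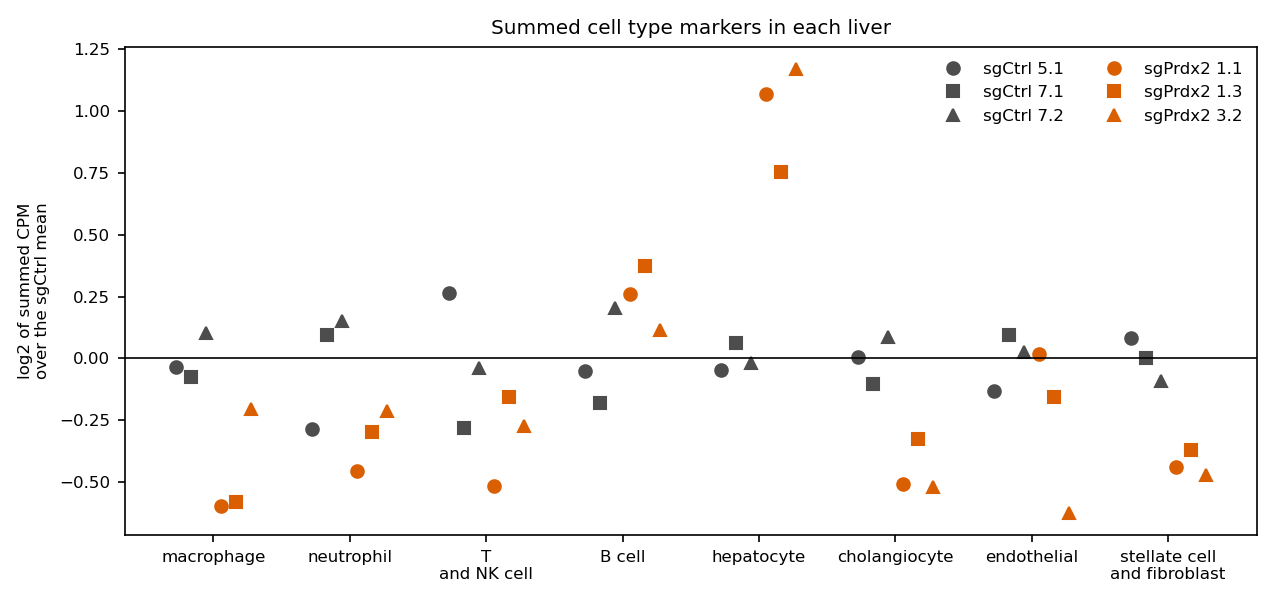
Log2 of the summed marker CPM of each cell type over the sgCtrl mean (y axis), 1 symbol per liver, sgCtrl in gray and sgPrdx2 in orange. The hepatocyte sums of the sgPrdx2 livers lie above every sgCtrl liver, the macrophage, cholangiocyte and stellate cell sums lie below, and the neutrophil, T and NK cell, B cell and endothelial sums overlap.

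Scaling mattered more than the choice of test for the fold changes of the 10 genes. Scaling to 6 housekeeping genes moved the median over all genes to -0.38 (log2), and total counts alone moved it to -0.39. Under the housekeeping scaling, and relative to that median, Plaur was at -1.08, Tnf at -0.86, Tnfrsf12a at -0.76, Tnfaip3 at -0.61, Tnfrsf1b at -0.48, Relb at -0.34 and Tnfrsf1a at 0.03. The order of the genes and their distances from the typical gene were therefore close to those under TMM. The housekeeping genes themselves were mostly higher in sgPrdx2 livers under TMM, though none was called. Their log2 fold changes were 0.45 (Atp5b), 0.26 (Bag6), 0.65 (Cox8a), 0.42 (Hint1), 0.68 (Ndufa2) and -0.07 (Hnrnpa2b1).

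**Figure D5:**
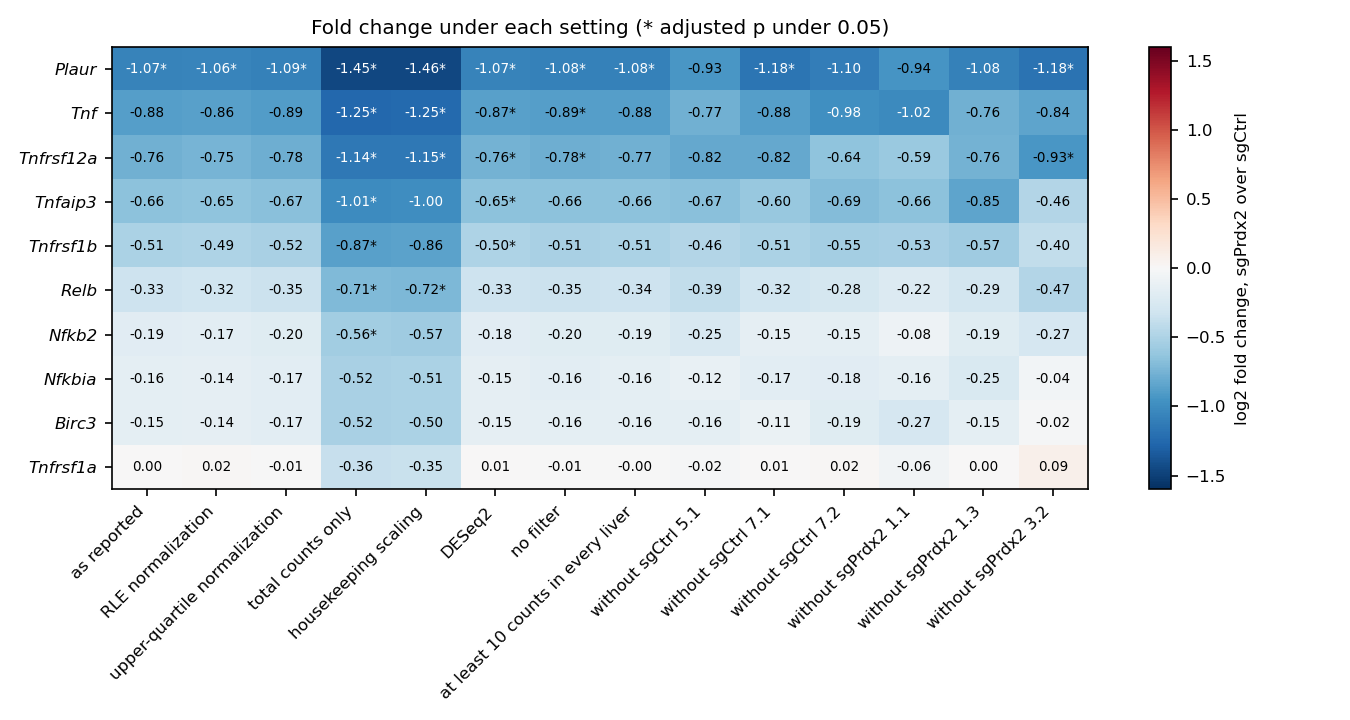
Log2 fold change of each of the 10 genes (rows), sgPrdx2 over sgCtrl livers, as reported and under 13 alternatives (columns), blue for negative and red for positive values, with an asterisk where the adjusted p was under 0.05. Total counts and housekeeping scaling shift all genes downward, and leaving out single livers changes which asterisks remain.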

How the data were processed

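RNA was sequenced from 3 sgCtrl and 3 sgPrdx2 livers, grouped by the sample titles, each from its own mouse. The authors deposited whole-number read counts per gene, without normalization, together with their DESeq2 comparison of the groups (means, fold changes, standard errors and p-values), which was not used. The submitters' processing notes name HISAT2, HTSeq, DESeq2 and GRCm38. Versions, annotation and strand setting are not given in the sources used here.

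The analysis used edgeR 4.0.16 under R 4.3.3. After filterByExpr (minimum count 10) and TMM normalization, the groups were compared by edgeR's quasi-likelihood test over the 6 livers, without covariates. The biological coefficient of variation was 0.213. The SE of a log2 fold change was derived from its F value. Total counts were 37462102 to 56865293. After TMM normalization, 3 counts came to 0.0555 to 0.0921 CPM over the 6 livers, which covers counting error only. Single values were compared by two-sided exact permutation tests. Coordinates and exon lengths come from GENCODE M21 (GRCm38), which need not be the authors' annotation, and promoters from RefSeq. The fits were also run on simulated counts with the same dispersion for every gene, as a check of the code only.

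The 10 genes and all lists were chosen with earlier results of these data known. Named were the 10 genes, Prdx2, the called genes of each pathway list or up to 3 with the smallest p, marker sums and the 5 genes of nearest profile. Other genes, such as single markers and the ratios' partners, were picked with their values in view. The result on 1 gene of the pathway lists is not reported here. The cholangiocyte sum without Spp1 was added after seeing the data. Alternatives were RLE, upper-quartile, total-count and housekeeping scaling (Atp5b, Bag6, Cox8a, Hint1, Hnrnpa2b1 and Ndufa2), DESeq2 1.42.0, dropping the filter or asking for 10 counts in each liver, thresholds of 0.01 and 0.10, and leaving out each liver.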

Additional observations from a re-analysis of the deposited data

How the results depend on the processing

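No paired analysis was possible because the groups share no replicate numbers. The log2 fold change was negative in 9 or 10 of the 10 genes under all 13 alternatives. With total counts and housekeeping scaling the median over all genes was itself negative, at -0.39 and -0.38, so the sign says little there. The number of these genes called (1) became 7 with total counts, 4 with housekeeping scaling, 5 with DESeq2, 3 without a filter, 0 at an adjusted p under 0.01, 4 at an adjusted p under 0.10, and 0 to 2 when a liver was left out, with 5 or 6 still at an unadjusted p under 0.05 in edgeR's test. Their median log2 fold change (-0.42) became -0.79 with total counts and with housekeeping scaling, and -0.43 to -0.40 when a liver was left out. The pathway lists (8 called) gave 39, 20 and 20 calls with total counts, housekeeping scaling and DESeq2, and 0 to 9 when a liver was left out. Over all genes (567 called), these settings gave 3247, 989 and 2048 calls, no filter 1128, adjusted p under 0.01 gave 0 and under 0.10 gave 1767. Leaving out a liver gave 0 to 619 calls, with 0 without sgCtrl 5.1 or 7.2 or sgPrdx2 1.1 or 1.3, where 3114 to 3993 genes kept an unadjusted p under 0.05 by edgeR. The log2 fold change of Tnfrsf1a (0.0022) reversed to -0.0099 with upper-quartile scaling, -0.36 with total counts, -0.35 with housekeeping scaling, -0.0056 without a filter and -0.0012 with at least 10 counts in every liver, and, when a liver was left out, ranged from -0.06 to 0.09 (-0.018 without sgCtrl 5.1 and -0.055 without sgPrdx2 1.1). Relative to the median of all genes it stayed at 0.01 to 0.03 under all of these scalings and filters, and at -0.03 to 0.10 when a liver was left out. The cause of the lost calls was not tested.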

Other observations

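Some genes of the pathway had higher levels in sgPrdx2 livers, although none of them passed the test in edgeR, and Plg, Serpinf2 and Sod2 passed in DESeq2. Ltbr, which encodes the lymphotoxin beta receptor, went from 144 ± 2.92 CPM to 196 ± 40.0 CPM with the Prdx2 guide (SD, n = 3), with no overlap between groups (log2 fold change 0.44, adjusted p = 0.158 in edgeR's quasi-likelihood test and 0.0850 in DESeq2). Sod2, the mitochondrial superoxide dismutase and an NF-kB target, was at 0.39 (adjusted p = 0.121 in edgeR and 0.0422 in DESeq2). Zfp36, which encodes the RNA-decay factor tristetraprolin, was at 0.60 (adjusted p = 0.417), and the IkB gene Nfkbib was at 0.30 (adjusted p = 0.319).

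Among tested pathway genes with a RefSeq promoter entry, 27 held the NF-kB consensus, with a median log2 fold change of -0.38 and 25 of them lower in sgPrdx2 livers. The 62 without it had a median of -0.24, with 45 lower. Over all tested genes with an entry, the median was -0.09 for the 1444 with the consensus and -0.02 for the 10319 without it. For TGANTCA, the medians were -0.43 for 14 pathway genes with the word and -0.22 for 75 without it, against -0.04 and -0.03 over all tested genes. These are descriptions without a test, and genes of the pathway were not chosen independently of each other.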
